A study of Drosophila melanogaster with 2 samples.

Results

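The regions described here are the peaks of CG10959-eGFP that fell between genes but not far from one. A peak was included when its summit, the position of highest enrichment, lay inside no gene, and more than 500 bp but at most 5000 bp from the nearest transcription start site of any gene. Of the 3417 peaks of the main list on the chromosome arms, 420 (12.3%, 95% Wilson interval 11.2 to 13.4) met this rule. The rule used only the position of the summit and no signal.

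The data come from whole Drosophila melanogaster embryos aged 0 to 8 h, of a transgenic strain that expresses the CG10959 protein fused to eGFP. All samples carry this one insertion, the antibody was directed against GFP, and chromatin was broken by sonication to fragments of 200 to 800 bp. There were 2 biological replicates of this single group and no second genotype, treatment or time, so peaks were compared between the replicates and between places in the genome. Whole embryos mix many cell types and 8 h of development, and a site bound in few cells cannot be told apart from one bound weakly in many. The signal given for each peak is the authors' deposited value, on a scale that the sources used here do not give, so it ranks peaks only within one list.

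DNA between genes holds enhancers, which act on promoters at a distance, and insulators, which limit which promoter an enhancer can reach. In flies, insulator sites are bound by zinc finger proteins such as CTCF and Su(Hw), and by BEAF-32, which mostly sits close to promoters. CTCF recognises a GC-rich core, searched here as AGNTGGCGC on both strands. The proteins Dref and M1BP bind motifs of housekeeping promoters, and Zelda and the GAGA factor open chromatin in the early embryo.

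The summit base of the strongest peaks, with the 50 bases on each side, is shown first, since these sites carried the highest signals. They are the 8 of highest signal that were supported by the list of each replicate and lie on the arms printed here, named by the gene with the nearest start site. Sequences are from the RefSeq copy of the dm6 assembly. Capitals mark matches of the CTCF letters, a short form of them, and the M1BP and BEAF-32 motifs only. These are the CTCF short form GATGGCGC at sp3, here as its reverse complement GCGCCATC, the M1BP motif GGTCACAC at slp2 and the BEAF-32 core CGATA at CG10479, here as its reverse complement. The site at sp3 does not match the full letters AGNTGGCGC.
CG31668 (chr2L:2202356-2202456, plus strand): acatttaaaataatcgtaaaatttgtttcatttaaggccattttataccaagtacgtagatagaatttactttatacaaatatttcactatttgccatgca
lncRNA:CR45643 (chr3R:16222428-16222528, plus strand): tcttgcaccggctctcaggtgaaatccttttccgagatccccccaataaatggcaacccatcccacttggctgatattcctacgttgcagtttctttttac
RasGAP1 (chr3L:9855924-9856024, plus strand): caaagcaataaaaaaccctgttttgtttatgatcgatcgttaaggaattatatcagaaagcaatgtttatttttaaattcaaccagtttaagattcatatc
CG43131 (chr3R:5113240-5113340, plus strand): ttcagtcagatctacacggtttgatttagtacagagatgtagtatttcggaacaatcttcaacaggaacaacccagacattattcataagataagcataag
sp3 (chr3R:21520305-21520405, plus strand): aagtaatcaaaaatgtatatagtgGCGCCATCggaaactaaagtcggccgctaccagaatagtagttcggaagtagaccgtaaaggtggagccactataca
slp2 (chr2L:3832484-3832584, plus strand): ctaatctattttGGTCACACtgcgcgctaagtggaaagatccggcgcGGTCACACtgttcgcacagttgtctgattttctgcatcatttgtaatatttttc
CG43245 (chr3L:10769793-10769893, plus strand): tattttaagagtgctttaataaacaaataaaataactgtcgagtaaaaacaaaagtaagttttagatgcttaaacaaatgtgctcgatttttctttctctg
CG10479 (chr3L:5976461-5976561, plus strand): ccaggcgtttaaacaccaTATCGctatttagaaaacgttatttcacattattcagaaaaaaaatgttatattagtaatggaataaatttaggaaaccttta

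The next set are 8 of the 19 summit windows that held the CTCF letters AGNTGGCGC, in capitals, read on the strand of the motif. They are shown because this motif had the highest ratio of all those searched to the DNA of the same kind in windows of this width.
bark (chr2L:3786383-3786423, plus strand): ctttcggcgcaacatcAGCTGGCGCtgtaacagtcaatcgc
Sox21a (chr3L:14111628-14111668, plus strand): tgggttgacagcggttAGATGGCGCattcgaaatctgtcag
Sid (chr3R:28672405-28672445, minus strand): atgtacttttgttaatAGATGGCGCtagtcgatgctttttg
lncRNA:CR45303 (chr2L:14502799-14502839, plus strand): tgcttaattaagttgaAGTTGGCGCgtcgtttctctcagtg
Gr89a (chr3R:16497507-16497547, minus strand): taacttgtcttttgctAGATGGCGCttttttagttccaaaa
jp (chr2L:9567468-9567508, minus strand): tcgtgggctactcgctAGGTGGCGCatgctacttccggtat
His3.3B (chrX:9152218-9152258, plus strand): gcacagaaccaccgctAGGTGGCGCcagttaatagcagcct
NLaz (chr2L:1362416-1362456, minus strand): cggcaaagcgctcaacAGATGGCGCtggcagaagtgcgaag

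The last set hold the string CACTGAGA, in capitals, within 50 bp of the summit, again on the strand of the string. They are shown because the same 8 letters recurred at 13 summits while no searched motif covers them.
lncRNA:CR43823 (chr2L:3594115-3594154, plus strand): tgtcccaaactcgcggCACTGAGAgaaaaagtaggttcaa
lncRNA:CR45303 (chr2L:14502816-14502855, minus strand): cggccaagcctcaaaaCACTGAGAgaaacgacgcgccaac
mat (chr3L:904463-904502, plus strand): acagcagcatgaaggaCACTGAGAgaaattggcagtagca
Phyhd1 (chr3R:10681760-10681799, minus strand): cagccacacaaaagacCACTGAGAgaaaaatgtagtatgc
sens (chr3L:13403122-13403161, plus strand): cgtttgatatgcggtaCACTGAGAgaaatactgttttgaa
CG45546 (chr3R:29372709-29372748, plus strand): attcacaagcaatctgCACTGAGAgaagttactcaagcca
srp (chr3R:15984660-15984699, minus strand): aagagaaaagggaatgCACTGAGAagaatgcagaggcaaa
CheA75a (chr3L:18248899-18248938, plus strand): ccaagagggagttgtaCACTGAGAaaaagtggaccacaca

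Of the 13 matches of CACTGAGA at these summits, 8 were followed by GAA, so that the shared stretch ran longer than the string that was counted. The nearest genes included sens, which encodes a zinc finger factor of sensory organ precursors, and srp, which encodes a GATA factor of blood, fat body and endoderm. No factor is named here for this string, which was picked from a ranking of all strings of this length on these same summits against their flanks. Its shares in both are therefore partly set by that choice.

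The CTCF motif was more frequent at these summits than anywhere it was compared. It was present in 19 of 420 summit windows, which reach 50 bases to each side (4.52%, Wilson 2.91 to 6.96), in 4 of 840 windows 300 bp to either side (0.476%), and in 0.277% of the 154239 windows that tile all intergenic DNA in the same range of distances. The share at the summit was 16.3 times that of the tiled windows. Among the other 2997 main-list summits it was 1.37%, and by place it was 1.54% at intergenic summits beyond 5000 bp, 1.05% within 500 bp of a start site, 1.36% inside genes within 5000 bp of a start site and 2.25% inside genes farther away. The interval for the near intergenic summits lies above each of these values, but it leaves out the sampling error of the values themselves. Some rest on few summits, 4 of 259 for intergenic summits beyond 5000 bp and 10 of 445 farther inside genes. No test of the difference was made.

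The short form GATGGCGC was found after the values were seen, by ranking strings at these summits against their flanks. Its shares in both are therefore partly set by that choice. The string was present at 14 summits (3.33%, 2.00 to 5.52) and in none of the 840 flanks. An upper limit of 3 over the number of windows allows a share of up to 0.357% there. It was present in 0.235% of the tiled windows and at 1.10% of other summits. By place, the share ran from 0.772% at intergenic summits beyond 5000 bp to 2.02% inside genes beyond 5000 bp from a start site. The last value lies within the interval for the near intergenic summits. The short form overlaps the CTCF letters, and 11 summits held both. Either form was present at 22 summits (5.24%), and 4 of these held more than 1 site. Matches lay close to the summit, with 13 matches of AGNTGGCGC in the 50 bp before it and 10 in the 50 bp after it, against 1 or none in most bins beyond 100 bp.

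Peaks with the CTCF motif ranged widely in strength. Of the 19, 8 were among the 105 strongest of the 420 and 2 among the 105 weakest. Their median signal was 141, against 112 for the peaks without it, and 10 of the 19 (52.6%) were found in the lists of both replicates, against 39.4% without. The strongest lay at CG14762 with a signal of 302, and the weakest at CG12725 with 68.4. Nearest genes included His3.3B, which encodes the replacement histone H3.3, with signals of 82.5 in replicate 1 and 102 in replicate 2. Sox21a, a SOX factor gene, had 106 and 157. The messenger RNA export gene sbr had a pooled signal of 140, and upd2, a ligand gene of the JAK/STAT pathway, had 50.8 in replicate 1 and 43.6 in replicate 2.

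CTCF-bearing peaks had lower ratios of replicate 1 to replicate 2 signal than other peaks, both among the near intergenic peaks and elsewhere. The median log2 ratio of the replicate 1 signal to the replicate 2 signal was -0.41 over these 19 peaks and -0.01 over the 364 other near intergenic peaks matched in both ranked lists. At the 40 CTCF-bearing summits elsewhere in the main list that were matched in both, the median was -0.52, against -0.03 without the motif. By the replicates' own lists, 6 of the 19 peaks were in that of replicate 2 only and 0 in that of replicate 1 only, where the counts over all 420 were 70 and 57. The STAT string and CACTGAGA had shifts of this size among the near intergenic peaks but not elsewhere: the median was -0.71 over 9 peaks with the first and 0.35 over 13 with the second, and 0.07 and 0.00 at other summits with these strings. Elsewhere in the main list the shift was not particular to CTCF. The median there was -0.44 over 31 peaks with the Dref motif TATCGATA and -0.34 over 29 with the E box CACGTG. It was 0.12 over 246 with the homeodomain core TAATTA, a shift the other way. Since the ranked lists were scaled separately, the ratio itself has no meaning, and only its difference between peaks with and without the motif can be read. The cause of this difference was not tested.

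**Figure D1:**
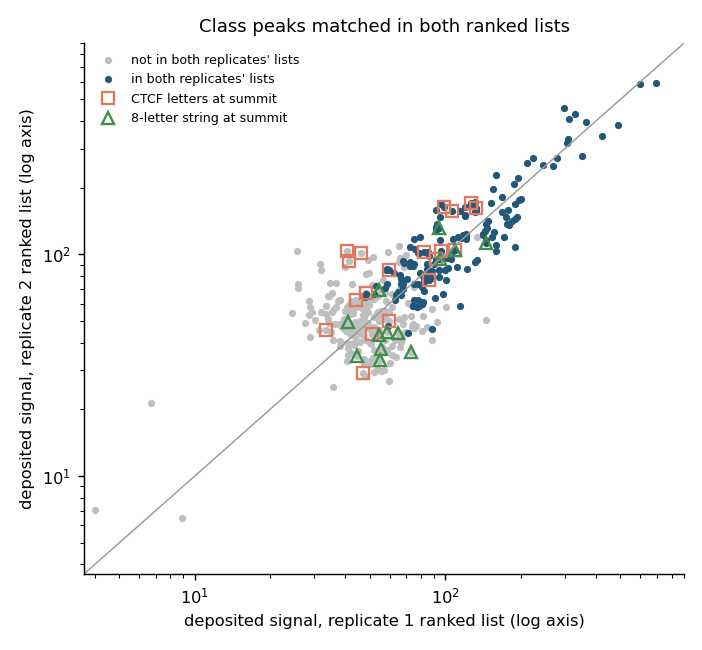
The deposited signal of each near intergenic peak in the ranked list of replicate 1 (x axis, log scale) and of replicate 2 (y axis, log scale), for the 383 peaks matched in both by a summit within 100 bp, with the diagonal as a line. Squares mark the CTCF letters at the summit and triangles the string CACTGAGA, each point being 1 peak, and most squares sit above the diagonal.

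The string CACTGAGA was spread more widely around the summit than the CTCF motif. It was present in 13 of the summit windows (3.10%, 1.82 to 5.22), in none of the flanks and in 0.369% of the tiled windows. Its matches filled the range from 200 bp before to 200 bp after the summit, with 15 in the bin from 50 to 100 bp after it and 10 in the bin from 100 to 50 bp before it. In wide windows that reach 200 bases to each side, a width chosen after these positions were seen, 49 of 420 peaks held it (11.7%, 8.94 to 15.1), at 53 different sites, against 521 of 34655 tiled windows of that width, a ratio of shares of 7.76. The CTCF letters were in 25 such windows (5.95%, against 1.09% of tiled windows).

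CACTGAGA was not particular to these peaks. In the same wide windows it was in 37 of the 259 intergenic peaks beyond 5000 bp (14.3%), in 8.25% of peaks inside genes within 5000 bp of a start site, in 10.6% of those farther inside genes and in 3.82% of the 1336 promoter peaks. The near intergenic peaks with the string were spread over both replicates, making up 13.3% of those in the list of replicate 1 and 13.9% of those in the list of replicate 2. In the narrower windows and at each list's own summits the split was 10 of 226 for replicate 1 and 2 of 262 for replicate 2, which was not the case in the wide windows of the main list.

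**Figure D2:**
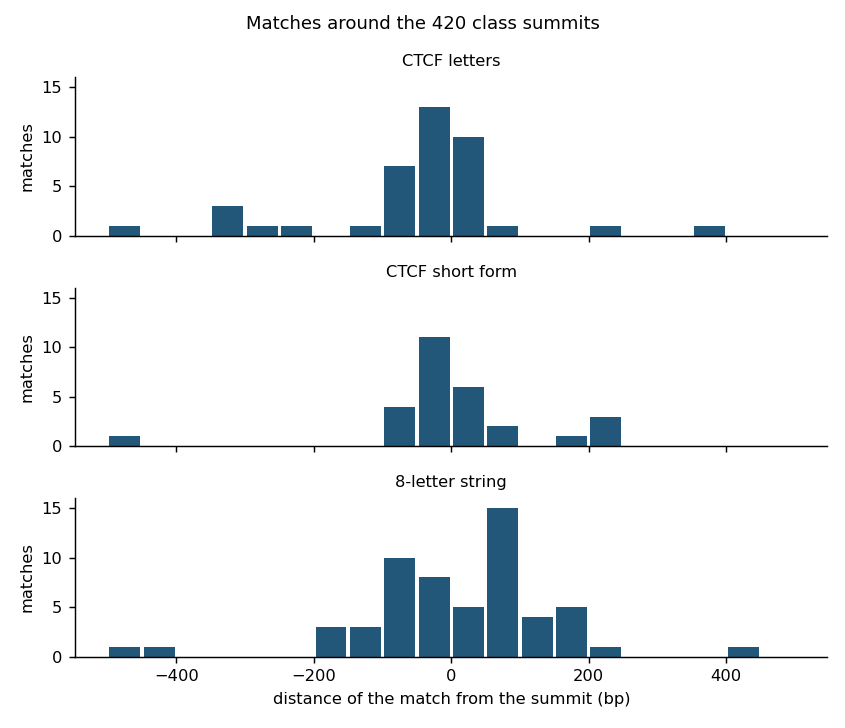
Number of motif matches (y axis) by distance from the summit in bp (x axis, bins of 50 bp) around the 420 near intergenic summits, for the CTCF letters, the CTCF short form and the string CACTGAGA. Most CTCF matches stand within 100 bp of the summit, and those of CACTGAGA reach 200 bp to either side. A site that lies near 2 close summits is drawn once for each.

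Motifs of promoter proteins were less frequent than at promoter summits, though some are also rare in intergenic DNA. The DRE, TATCGATA, which Dref binds, was at 0 of 420 summits (Wilson 0 to 0.906%), in 0.187% of tiled windows and at 2.17% of promoter summits. In the wide windows it was still at 0, against 0.730% of tiled windows and 8.16% of promoter peaks. The M1BP motif was at 1 summit (0.238%), that of slp2, where it occurs at 2 places in the printed sequence, against 0.128% of tiled windows and 0.973% of promoter summits. The BEAF-32 core was at 39 summits (9.29%, 6.87 to 12.4), against 8.10% of flanks, 15464 of the 154239 tiled windows, a ratio of shares of 0.926, and 17.2% of promoter summits.

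Of the other searched motifs, most were near the level of the tiled windows at this width. The TATA box TATAAAA was at 7.86% of summits (5.65 to 10.8), against 4.52% of flanks, 5.25% of tiled windows and 8.44% of other main-list summits. The Su(Hw) core TGCATAC was at 2.14% (1.13 to 4.02), against 0.714% of flanks and 1.53% of tiled windows. The homeodomain core TAATTA was at 9.76% against 8.04% of tiled windows, the Zelda motif CAGGTAG at 0.476% against 0.431%, and the GAGA motif GAGAGAG at 0.714% against 1.07%. The Pho core GCCAT, to which a Polycomb recruiter binds, was at 21.7% against 21.1%. The E boxes CACGTG and CATATG were at 1.19% and 3.57% against 1.19% and 3.11%. The GATA string AGATAAG was at 1.43% against 1.12%, and the Caudal string TTTATGG at 3.10% against 3.46%. The STAT string TTCNNNGAA was at 2.14% against 3.02%, CAGCTG at 2.86% against 3.81%, the CA repeat ACACACAC at 1.19% against 2.06% and a run of 8 A at 5.95% against 5.87%. The interval of each motif in this paragraph but the TATA box included the share of the tiled windows. In the wide windows the TATA box was in 19.8% of peaks against 18.9% of tiled windows, while some other shares moved apart. The GAGA motif was in 30 peaks (7.14%) against 4.19% of tiled windows, a ratio of 1.71, and the STAT string in 27 (6.43%, 4.46 to 9.19) against 11.9%, a ratio of 0.542. Other peaks also differed from these windows. The GAGA motif was in 13.2% of promoter peaks, 11.1% and 7.19% of peaks inside genes near and far from a start site, and 5.02% of intergenic peaks beyond 5000 bp. The STAT string was in 8.49% to 9.81% of the peaks of each of these classes. A match is a string in a window and does not show that a factor was bound.

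**Figure D3:**
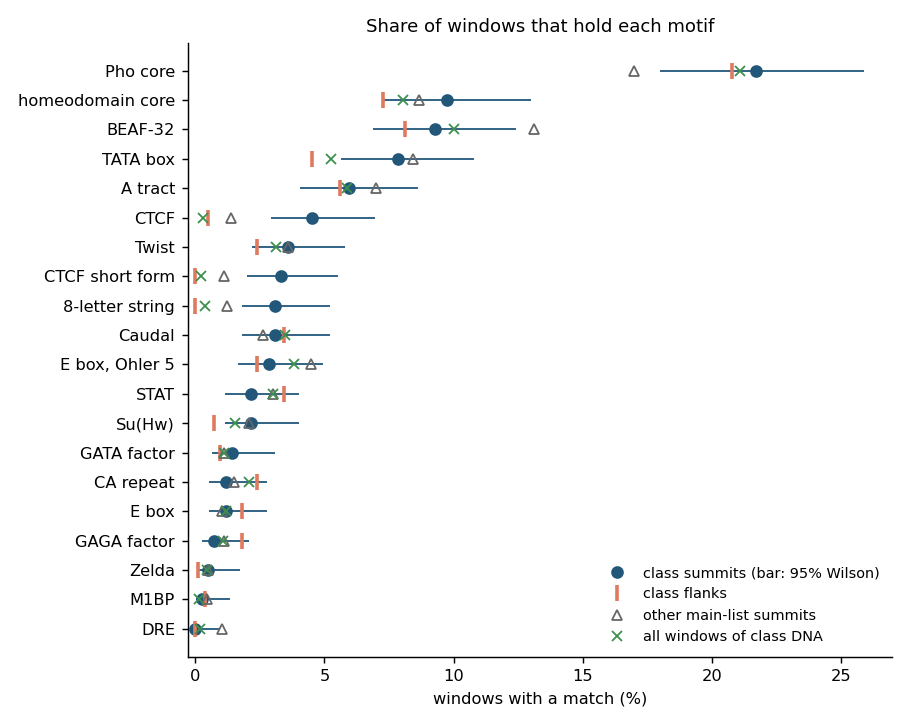
Percent of windows with a match (x axis) for each of 20 motifs (y axis), with filled points for the 420 near intergenic summits and bars for their 95% Wilson intervals. Vertical ticks are the flanks 300 bp away, triangles the other 2997 main-list summits and crosses the tiled windows of intergenic DNA in the same range of distances. The 2 CTCF forms and the 8-letter string stand away from flanks and crosses. The short form and the 8-letter string were picked on these summits against these flanks, so their distance from the flanks is partly set by that choice.

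Summits lay in dips of G and C. The summit windows averaged 37.8% ± 10.3 (SD, n = 420) G and C, the flanks 43.4% ± 8.10 and the tiled windows 40.8% ± 9.65. The summit was lower than its own flanks at 266 peaks, higher at 153 and equal at 1. The mean rose to 44.2% at 200 bp before and 45.2% at 200 bp after the summit and then fell to between 40.1% and 41.8% beyond 500 bp. Intergenic summits beyond 5000 bp had the same shape, with 37.7% at the summit, while around promoter summits the mean stayed at 44.2% or more beyond 300 bp. All of the 10 strings of 8 bases that stood out most at the other main-list summits held only A and T. One of them, ATATTTAA, was at 4.05% of near intergenic summits against 0.357% of their flanks and 2.49% of tiled windows, the largest contrast with flanks of the 10. Of the 10, only AATAAAAT was less frequent at summits (2.86%) than in flanks (3.10%). AATAAAAT and ATATTAAA were also below their shares of tiled windows, 3.44% and 1.94%.

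**Figure D4:**
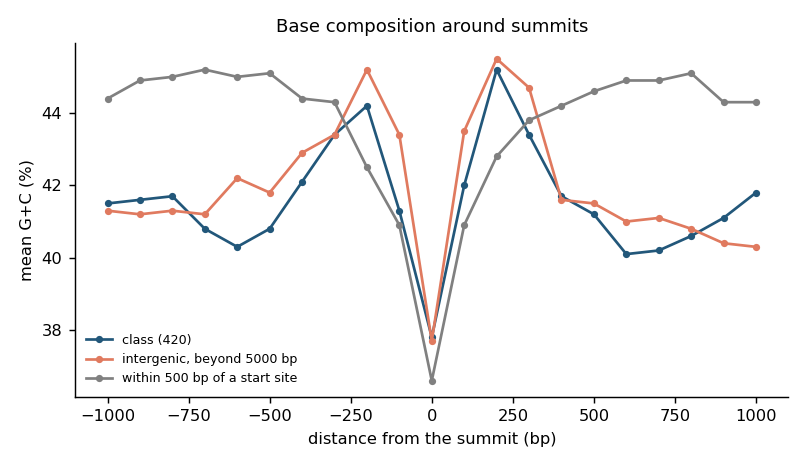
Mean G and C content in percent (y axis, not from 0) of windows of the same width by distance from the summit in bp (x axis), for the 420 near intergenic peaks, the 259 intergenic peaks beyond 5000 bp and the 1336 promoter peaks. All 3 lines are lowest at the summit, at 37.8%, 37.7% and 36.6%.

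By position, these peaks filled their share of the genome and no more. Intergenic DNA at this distance made up 12.1% of the arms, and the share of summits was 1.01 times that. The density was 25.8 peaks per Mb, between that of promoters, 74.5 per Mb, and that of intergenic DNA beyond 5000 bp, 12.6 per Mb. Of the 2081 summits outside promoters, 20.2% (18.5 to 22.0) were near intergenic, where this DNA made up 14.0%, a ratio of 1.44.

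Over all arms, density was higher up to 2000 bp than beyond. It was 32.1 per Mb up to 1000 bp (90 peaks) and 31.7 per Mb from there to 2000 bp (144 peaks). It was 18.8 per Mb from 2000 to 3000 bp (68 peaks), 23.8 from 3000 to 4000 bp (69 peaks) and 20.6 from 4000 to 5000 bp (49 peaks). Arms differed in this: on 2R the densest bin was that from 3000 to 4000 bp, at 32.6 per Mb, and on 3L the farthest bin, at 35.9 per Mb, was close to the nearest, at 38.0. The median distance was 1804 bp. At the near limit, the summits just inside lay 503 bp from lncRNA:CR45277 with a signal of 137 and 504 bp from CG10479 with 564, and those just outside lay 494 bp from l(3)neo38 with 187 and 497 bp from CG17896 with 347. At the far limit, the summits just inside lay 4989 bp from CG43120 with 86.8 and 4993 bp from CG11286 with 74.5, and those just outside, at 5015 and 5042 bp, had 316 and 156.

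The direction of the flanking genes made little difference. Gaps between divergent genes held 117 peaks (27.9%, in 26.6% of the DNA), gaps between genes in tandem held 214, in 52.9% of it, and gaps between convergent genes held 89 (21.2%, in 20.3%). Of the 420 summits, 276 (65.7%) lay before the nearest start site, on the side that is not transcribed from it, where 64.4% of the DNA lay.

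Chromosome arms differed. Arm 3L held 132 of these peaks, at 38.1 per Mb of such DNA, which was 1.69 times the density on the rest of the arms. The X chromosome held 37, at 15.6 per Mb, 0.566 times the rest, and 3R held 82, at 21.0 per Mb, 0.767 times. Arms 2L and 2R held 103 and 66, at 28.8 and 23.4 per Mb, and chromosome 4 held none in 0.117 Mb. The other main-list peaks, taken as 1 set, did not share the differences on 3L, X and 3R, with ratios of 1.07, 1.01 and 0.997. On 2L and 2R their ratios of 1.12 and 0.889 were close to the 1.15 and 0.888 of the near intergenic peaks. Only 1 other main-list peak lay on chromosome 4. The differences on 3L, X and 3R were present in both replicates. In the list of replicate 1 the ratios were 1.69, 0.569 and 0.599, and in that of replicate 2 they were 1.71, 0.645 and 0.638. No input sample was used here, and differences in copy number or coverage between arms were not tested.

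**Figure D5:**
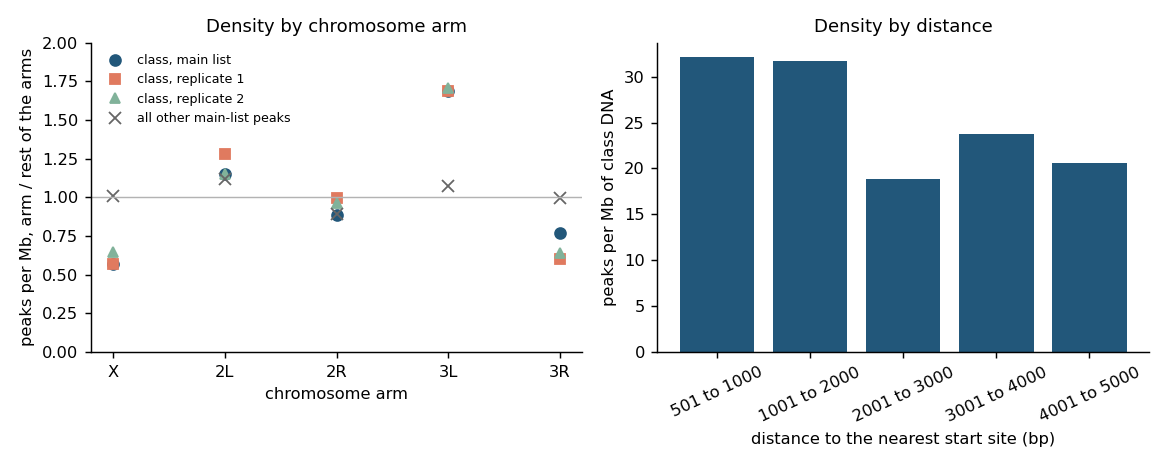
Left, density of peaks per Mb on each arm divided by that on the remaining arms, for the near intergenic peaks in the main list and in each replicate's list, and for all other main-list peaks, with a line at 1. Right, near intergenic peaks of the main list per Mb of intergenic DNA by distance to the nearest start site, with 5 bars from 32.1 to 18.8 per Mb.

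Some stretches of a chromosome were dense. On 3L, 17 peaks lay in each of the fullest stretches of 1 Mb, the first Mb of the arm at 112 per Mb and the stretch from 11000001 to 12000000 at 87.4 per Mb. The stretch of 2L from 14000001 to 15000000 held 14 at 57.2 per Mb. These stretches were picked as the fullest and are a description only.

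A small share of the candidate peaks passed the authors' threshold. The pooled ranked list held 144499 peaks on the arms, of which 2.36% were kept in the main list. Of the 17952 ranked peaks that met the position rule, 420 were kept (2.34%), near that background. The share was 6.46% at promoters, 1.58% for intergenic DNA beyond 5000 bp, 1.74% inside genes near a start site and 1.29% farther inside genes. By arm, 132 of 3682 (3.59%) were kept on 3L and 37 of 2460 on X.

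Support by the single replicates followed signal. A total of 168 peaks (Wilson 35.4% to 44.8%) were found in the lists of both replicates, 57 in that of replicate 1 only, 70 in that of replicate 2 only and 125 (29.8%) in neither. Their median signals were 194, 107, 105 and 87.6. The share in both lists was 98.1% among the 105 strongest, 50.5% among the next 105, and 4.76% and 6.67% among the following groups of that size. It was 40.5% for intergenic peaks beyond 5000 bp and 55.5% (52.9 to 58.2) for promoter peaks. Since 1 bp of overlap was enough, a weak peak beside a stronger one can be counted through its neighbour. At ph-d, a peak of 43.1 that counted as in both lists lay 211 bp from one of 335. The authors' conservative list, also derived from both replicates, overlapped 349 of the 420 (83.1%, Wilson 79.2 to 86.4). That overlap was 86.6% for promoter peaks and 78.8% for intergenic peaks beyond 5000 bp. In the ranked lists, 383 of the 420 had a summit within 100 bp in each replicate, and over these peaks, which share both libraries, the Spearman correlation of the signals was 0.684 and the Pearson correlation of log2 signals was 0.822.

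As a class the peaks were weaker than promoter peaks. The lowest signal was 2.37, the median 113 and the highest 1298, with quartiles of 89.8 and 174. Promoter peaks had a median of 143, intergenic peaks beyond 5000 bp had 114 and peaks inside genes had 118 near a start site and 114 farther away. Of the near intergenic peaks 11.4% were among the 500 strongest of the main list, against 20.7% of promoter peaks.

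The strongest of all lay between COX7AL2 and CG31668 at chr2L:2202254-2202564, 3760 bp from the start of CG31668. Its signal was 1298, with 691 in replicate 1 and 593 in replicate 2. The next lay beyond the end of CycB, which encodes the mitotic cyclin B, at chr2R:22802792-22803107, with a signal of 1173 and replicate values of 597 and 585. They took places 15 and 21 in the whole main list by signal. The third, with a signal of 873, lay in the gap of 10284 bp between the converging ends of CG13321 and Psc, at chr2R:12958070-12958357. Psc encodes a subunit of Polycomb repressive complex 1. The replicate values there were 489 and 384.

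Other strong peaks lay near long non-coding RNA genes and protein-coding genes. At lncRNA:CR45643 the signal was 785, with 330 in replicate 1 and 431 in replicate 2, 917 bp before the start. At RasGAP1, which encodes a GTPase-activating protein for Ras, it was 764, with 423 and 340, 689 bp before the start. The peak at lncRNA:CR44761 had 751, with 312 and 409, and that at CG43131 had 748, with 365 and 396. At sp3, in the gap shared with the homeobox gene C15, it was 734, with 297 and 457, and this summit held the CTCF short form. The peak at CG43245, in the longest gap of any member at 75047 bp, had 638, with 352 and 279. The rest of the 20 strongest had signals from 647 at slp2 down to 381 at lncRNA:CR44853, and were nearest to CG10479, lncRNA:CR42794, lncRNA:CR45737, DNAlig3, CG5194, lncRNA:CR45937, lncRNA:CR46445, CG17570 and lncRNA:CR45750. In 7 of the 20 the nearest gene was protein-coding and known only by its gene number, and in 8 it was a long non-coding RNA gene. Over all 420 peaks these counts were 109 (26.0%) and 133 (31.7%).

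Of all 420 peaks, 271 (64.5%) were nearest to a protein-coding gene, whose share of the DNA was 69.4%. A further 138 (32.9%, in 28.8% of the DNA) were nearest to a non-coding RNA gene, of which 133 are named as long non-coding. Transfer RNA genes were nearest to 10 peaks, at 42.0 per Mb. The strongest of these lay 2271 bp before tRNA:Phe-GAA-1-7 with a signal of 336 and replicate values of 178 and 158, and the next, 2740 bp from tRNA:Arg-CCT-1-2, had 281, with 96.1 and 169. With 10 peaks in 0.238 Mb, this density rests on few sites.

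The genes nearest to these peaks numbered 353, which is 4.64% of the 7601 genes that are nearest to any intergenic DNA at this distance. Among 14 lists of developmental and chromatin genes, 162 genes had such DNA and 16 (9.88%) had a peak, and per Mb the lists had 33.8 peaks where all genes had 25.8. The 162 genes had 0.504 Mb of such DNA, and the density is the comparison that takes its amount into account. Hox genes (0 of 8), dorsoventral genes (0 of 14) and genes of steroid hormone and nuclear receptors (0 of 13) had none. They had only 0.0177, 0.0393 and 0.0371 Mb of such DNA, too little for a lack of peaks to be read from this.

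Segmentation genes had a few. Among 8 pair-rule genes with such DNA, slp1 and slp2 had a peak each, in the same gap of 9740 bp. Both encode forkhead factors that act in segmentation. The peak 4306 bp before slp2, at chr2L:3832402-3832636, had a signal of 647, with 309 in replicate 1 and 332 in replicate 2. The peak 2238 bp past the start of slp1, beyond its end, had 302, with 190 and 108. Among 13 segment polarity genes the Wnt receptor gene fz had a signal of 140, with 66.6 and 73.8, and the ligand gene Wnt6 had 98.9, with 40.6 and 54.7. Among 9 gap and head gap genes only ems, a homeobox gene of the head, had a peak, with 79.0, and replicate values of 57.2 and 30.1.

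Regulators of tissues had single peaks. Of 18 mesoderm and heart genes Doc2, a T-box gene, had one of 290, with 133 and 157 in the replicates. Of 19 early neural genes nerfin-1, a zinc finger gene, had one of 86.5, in neither replicate's list. Of 18 tracheal, gut, blood and epidermal regulators, bin, a forkhead gene of the visceral mesoderm, had 138, the zinc finger gene peb had 134, and srp, also the only one of 5 genes in the GATA list, had 99.0. Of 39 other homeobox genes, zfh1 had 97.7, B-H1 had 87.7 and ems is given above. Among 20 signalling genes, fz and upd2 are given above, and the FGF ligand gene ths had a peak of 131 with replicate values of 61.3 and 66.3. Apart from Doc2 and peb, no peak named in this paragraph was in both replicates' lists. All of them but that of ems overlapped a peak of the conservative list.

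Among 8 Polycomb and trithorax group genes with such DNA, ph-d, which encodes a Polyhomeotic subunit of Polycomb repressive complex 1, had 2 peaks. The one 784 bp before its start, at chrX:2123990-2124160, had a signal of 335, with 189 in replicate 1 and 144 in replicate 2. The other, 995 bp before the start, had 43.1, and the peaks overlap. Of 5 insulator protein genes, Zif had a peak of 91.5 in neither replicate's list, though it overlapped one of the conservative list.

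Genes with a near intergenic peak more often had a promoter peak too. Of the 353, 52 (14.7%) also had a peak with its summit at most 500 bp from a start site, against 488 of the other 7248 (6.73%). For protein-coding genes the shares were 16.9% and 7.37%. The genes with a peak also had more intergenic DNA of this kind, a median of 4219 bp against 1088 bp, and the part of that difference in the result was not tested.

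Some peaks lay close together. The next summit of the main list lay within 1000 bp of 95 of the 420 (22.6%) and within 5000 bp of 215 (51.2%). The 95 include 47 with a summit within 300 bp, and the shares for other peaks are not given here. The 420 peaks lay in 339 gaps between genes, and 67 gaps held more than 1, with 148 peaks in all. The fullest gap, of 6545 bp on 3L between lncRNA:CR45737 and sty, held 5. The gene sty encodes Sprouty, an inhibitor of receptor tyrosine kinase signalling. The signals there, from the RNA gene towards sty, were 517, 187, 329, 103 and 27.9. In the first 3 of these peaks the replicate 1 values were 307, 91.7 and 169, the replicate 2 values were 318, 159 and 156, and each was in both replicates' lists. The last 2 overlap each other and were in the list of replicate 1 only. The peak of 27.9 had a replicate 1 value of 6.13 and no matched summit in replicate 2.

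Other gaps on 3L held 4 peaks each. In that between tRNA:Ile-TAT-1-2 and CG13898, 32964 bp long, the strongest had a signal of 358, with 168 and 182 in the replicates, 1154 bp from CG13898. In that between lncRNA:CR45937 and lncRNA:CR45936, 8939 bp long, the strongest had 463, with 224 and 272. The weaker peaks of both gaps had signals from 86.2 to 142.

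Some close peaks were calls that overlap. The next summit of the main list was at most 300 bp away for 47 peaks, and 42 had another of the 420 within that distance. All of the 14 peaks with a signal under 20 had a stronger main-list summit 199 to 278 bp away, as at Argk2, where a peak of 5.35 lay 214 bp from one of 125. With summits within 500 bp merged, 397 peaks remained.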

How the data were processed

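ChIP-seq peak lists of 2 biological replicates of 1 group were used as deposited, in narrowPeak form on dm6 per the file descriptions. The signal of each peak is the authors' deposited value on a scale not given. The sources used here name neither the aligner nor the peak caller. Numbers of reads were not used, so depth is unknown, and Wilson intervals of 95% cover sampling of peaks only. Of the pooled ranked lists, 16 columns whose replicate no label names were left out.

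The main list was the pooled thresholded one. Summits were placed on the Ensembl BDGP6 annotation, without transposable elements and pseudogenes, and RefSeq's dm6 genome gave the sequences. A total of 11 gene symbols were updated to the annotation. Replicate support needed 1 bp of overlap, and signals were matched by summits within 100 bp. Motifs were searched on both strands from 50 bases before to 50 bases after the summit. The design has no second condition, and no test was run. Named peaks were the 20 strongest found in both replicates' lists, up to 3 for each gene list, those nearest to the distance limits and those of the 3 fullest gaps. Transfer RNA neighbours, motif-bearing peaks, dense stretches and Argk2 were chosen for naming once their values were known. The peaks, lists and motifs were chosen with earlier results of these data known. Placement and motif counts were checked on simulated positions and sequences. Alternatives covered other lists, genes, distances and windows. Software was matplotlib 3.10.9, scipy 1.17.1, pandas 2.3.3, numpy 2.4.6 and Python 3.11.15.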

Additional observations from a re-analysis of the deposited data

How the results depend on the processing

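No paired analysis was possible because there is 1 group and no comparison between groups. The 420 peaks became 226 to 262 with a single replicate's list and 168 when a peak had to be in both replicates' lists, an alternative chosen after seeing the data. The share of summits against the share of DNA, 1.01, stayed close to 1 and changed side: it was 0.995 in the conservative list, 0.911 to 0.927 with a single replicate, 0.962 beyond 1000 bp, 0.865 for peaks in both lists and 1.09 with protein-coding genes only. The median signal against that of other peaks, 0.898, was 0.936 to 0.974 with a single replicate, 0.930 for peaks in both lists and 0.946 with close summits merged, and it stayed below 1 under every alternative run. The share of ranked peaks that passed, 2.34%, was 2.57% with protein-coding genes only. Support by both replicates, 40.0%, was 38.1% to 40.0% under the alternatives run. Peaks with the CTCF motif, 4.52%, ranged from 3.54% to 5.95% across lists and gene sets and were 2.38% in 51 bases. Genes of the 14 lists with a peak, 16, fell to 9 or 10 with a single replicate and to 5 for peaks in both lists. The causes were not tested.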
